A study of Drosophila melanogaster with 18 samples.

Results

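The genes described here are 10 Drosophila melanogaster genes of the heat shock response and of protein folding, out of 17402 genes in the deposited count table. They were taken by name, and each was found as 1 row: Hsp83, Hsc70-3, Hsc70-4, Hsp68, Hsp26, Hsp27, Hsf, stv, DnaJ-1 and Hop. RNA was sequenced from 18 libraries, 3 in each of 6 groups, to follow the response of neurons to reduced shep (alan shepard), a gene for an RNA-binding protein. Neurons marked by GFP were sorted live from P14 (late) pupae and from third-instar larvae. The RNAi animals were elav>shep-RNAi, Dcr, mCD8::GFP and the control animals elav>Dcr, mCD8::GFP, so that Dicer-2, which strengthens RNAi, and membrane GFP were present in the controls too. elav is a driver active in neurons in general, and each neuron library is therefore a mixture of neuron types. The remaining groups were cultured BG3-c2 cells, a line from the larval nervous system, treated with double-stranded RNA (dsRNA) for shep, or for GFP as the control. The labels name no heat treatment for any group. They also do not say whether replicates were separate animals or cultures, so p-values measure the spread between these libraries. In bulk libraries, fewer cells of a type and less RNA per cell cannot be told apart.

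Chaperones bind unfolded proteins and help them reach or regain their folded state. When proteins unfold, the transcription factor encoded by Hsf (heat shock factor) switches on the heat shock genes, while cognate chaperones are made without stress as well. Hsp83 encodes the cytosolic Hsp90, Hsc70-4 the main cytosolic Hsp70 cognate, Hsc70-3 the Hsp70 of the endoplasmic reticulum (BiP), and Hsp68 a stress-inducible Hsp70. Hsp26 and Hsp27 encode small heat shock proteins, which hold unfolded proteins until an Hsp70 takes over. DnaJ-1 encodes a J-domain (Hsp40) partner that loads clients onto Hsp70, stv (starvin) a BAG-domain factor that releases nucleotide from Hsp70, and Hop (listed as Stip1) the adaptor that joins Hsp70 to Hsp90. Hsp26, Hsp27 and Hsp68 are classic heat-inducible genes of the fly, and small heat shock genes are also controlled by ecdysone during development.

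In the Ensembl release 115 annotation of dm6, Hsp26 (FBgn0001225) lies on arm 3L from 9376418 to 9377427 on the minus strand, and Hsp27 (FBgn0001226) lies nearby from 9384063 to 9385694 on the plus strand. Both have a single exon block, as do Hsp68 (FBgn0001230, arm 3R, 24055080 to 24057310, minus strand) and DnaJ-1 (FBgn0263106, arm 3L, 5750029 to 5752189, minus strand). Hsp83 (FBgn0001233) lies on 3L from 3192969 to 3197059 and stv (FBgn0086708) on 3L from 13477541 to 13483515, both on the plus strand. Hsc70-4 (FBgn0266599) lies on 3R from 15242687 to 15246614, and Hop (FBgn0024352) on 2L from 295122 to 297449, again on the plus strand. Hsc70-3 (FBgn0001218) lies on X from 11801696 to 11807117 and Hsf (FBgn0001222) on 2R from 18130303 to 18134634, both on the minus strand. Exons of Hsp83, Hsp68 and Hsp27 overlap exons of opposite-strand genes by 15, 26 and 49 bases. The strand setting of the counting is not given in the sources used here. Reads from those few bases can therefore not be assigned to a gene.

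Libraries held 7392299 to 12910603 counts in neurons and 3141100 to 5081610 in BG3 cells, and the 3 shep dsRNA libraries were all deeper than those with GFP dsRNA. shep itself fell in all 3 settings, with log2 fold changes of -0.92 in pupal neurons, -1.44 in larval neurons and -1.08 in BG3 cells (edgeR adjusted p = 3.7e-06, 4.93e-09 and 1.26e-06), and no RNAi or shep dsRNA library overlapped its controls. All 9 neuronal markers looked up were above 1 CPM (counts scaled to a common library total) on average in the neuron groups, whereas 7 of 9 were under 1 CPM in BG3 cells. Markers of hemocytes (blood cells) summed to 1742 to 2095 CPM (marker sums are scaled by library totals) in BG3 cells and to 47.7 to 263 in neurons. BG3 cells thus carried few of the transcripts that mark the sorted neurons.

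The 10 genes together took more of the larval libraries than of the others. Their share of all counts was 0.781%, 1.05% and 0.867% in the pupal RNAi libraries, against 0.953%, 1.07% and 1.06% in the pupal control libraries. It was 2.24%, 2.32% and 2.17% in larval RNAi, against 2.26%, 2.05% and 1.94% in larval control libraries. It was 0.762%, 0.733% and 0.733% after shep dsRNA, against 0.680%, 0.710% and 0.792% after GFP dsRNA. Counting error was small beside the spread between libraries: the widest 95% Wilson interval ran from 2.31% to 2.33% in larvae, from 0.861% to 0.874% in pupae and from 0.782% to 0.801% in BG3 cells, and these cover counting error only. RNAi and control shares overlapped within each setting. The pupal control shares were all below the larval control shares, as were the GFP dsRNA shares. The exact 2-sided permutation p was 0.1 for each, the smallest that 3 against 3 libraries allow. Shares are scaled by library totals, and on that scale most genes tested were called lower in pupal than in larval controls, as given below. The pupal shares therefore say little about these 10 genes in particular.

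**Figure D1:**
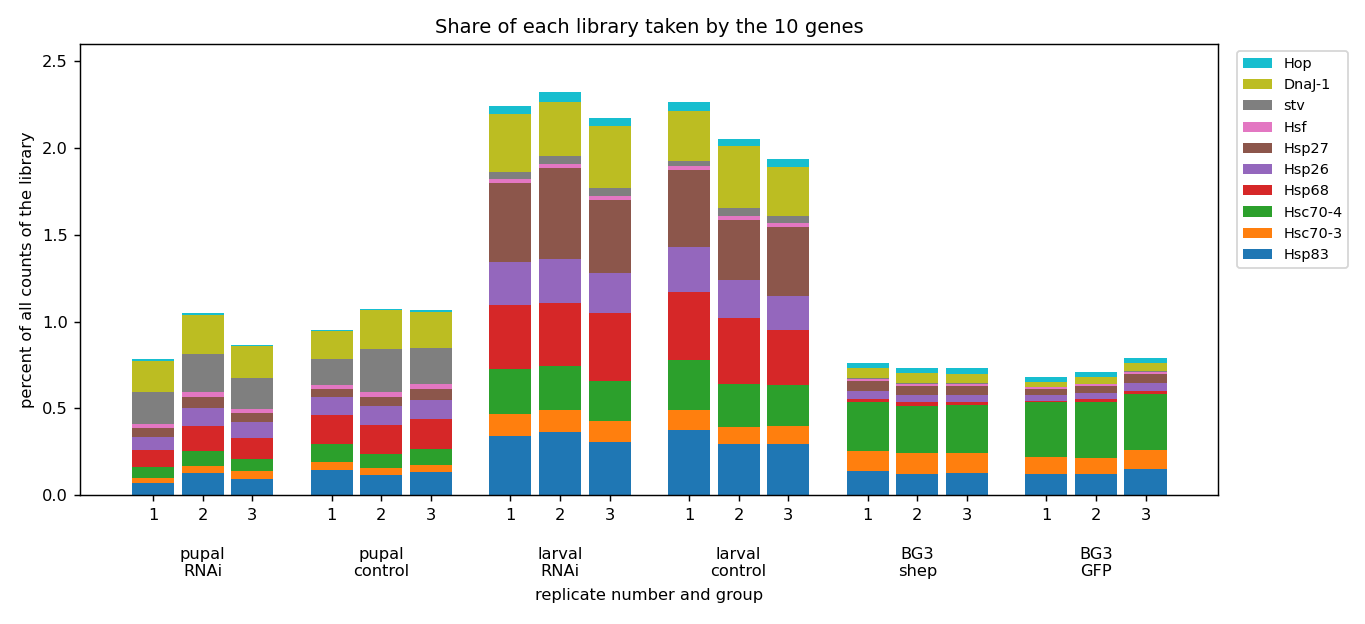
Stacked bars give the percent of all counts of each library (y axis) that each of the 10 genes took, with replicates 1 to 3 of the 6 groups along the x axis. The larval libraries reach 1.94% to 2.32%, with wide bands of Hsp27, Hsp68 and DnaJ-1. In pupal libraries stv takes a wide band that is thin in the larval ones, and in BG3 cells Hsc70-4, Hsp83 and Hsc70-3 make up most of each bar.

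Levels were compared between genes per kilobase of exon, on the scale of CPM with TMM factors over all 18 libraries, which is the CPM scale used throughout. In larval control neurons Hsp27, Hsp26, Hsp68 and DnaJ-1 led. Hsp27 stood at 2074 ± 199 CPM per kb, Hsp26 at 1887 ± 233, Hsp68 at 1403 ± 134 and DnaJ-1 at 1229 ± 200 (SD, n = 3 each). Hsp83, at 923 ± 95.7 CPM per kb, and Hsc70-4, at 812 ± 54.2, followed them. stv was ninth at 91.6 ± 21.5, and Hsf was lowest at 66.4 ± 4.06. In BG3 cells with GFP dsRNA the cognate Hsc70-4 led instead with 955 ± 46.6 CPM per kb. Hsp83 followed at 348 ± 32.8 CPM per kb, Hsp68 was eighth at 44.6 ± 18.4, and stv was last at 6.88 ± 2.14.

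**Figure D2:**
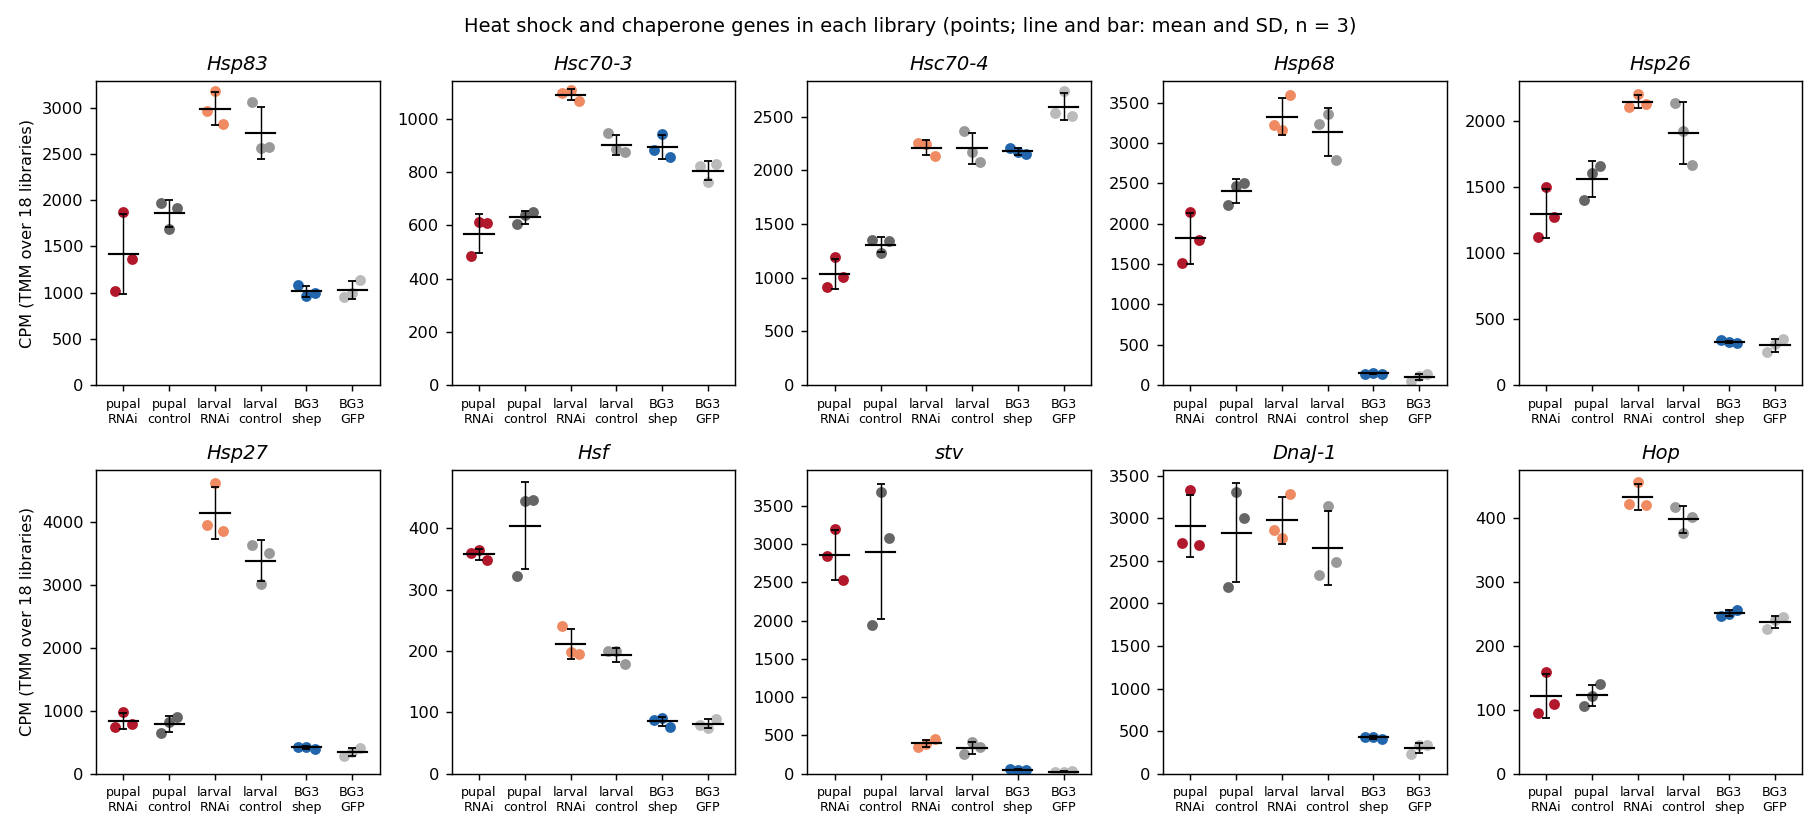
Each panel shows 1 gene, with its level in CPM (TMM over 18 libraries, y axis from 0) in the 3 libraries of each group (points), the group mean (line) and the SD (bar). Hsp68, Hsp26, Hsp27, Hsf, stv and DnaJ-1 are lower in both BG3 groups than in any neuron group. As a ratio of means the gap is smallest for Hsp27, with 419.5 CPM after shep dsRNA and 792 CPM in pupal controls. stv and Hsf are highest in pupal neurons, and Hop and Hsp27 in larval neurons.

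The first comparison asked which of these genes changed with shep RNAi in pupal neurons. Of the 10 genes, 2 fell and none rose, against 7.65% of all 8784 genes tested that were called and 4.17% that were called lower. Both are Hsp70 family genes, the cytosolic cognate Hsc70-4 and the inducible Hsp68. Over all genes 306 were higher and 366 lower, or 194 and 398 with the trend with gene length removed.

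Hsc70-4 stood at 914, 1189 and 1007 CPM in the pupal RNAi libraries, against 1351, 1231 and 1344 CPM in the pupal control libraries. Every RNAi library was below every control, with RNAi replicate 1 lowest. The level decreased by 21.4% (log2 fold change -0.35, SE 0.10, adjusted p = 0.0357 by edgeR). Hsp68 stood at 1518, 2146 and 1795 CPM in the pupal RNAi libraries, against 2236, 2467 and 2508 CPM in the pupal control libraries. Again the groups did not overlap and RNAi replicate 1 was lowest. Hsp68 decreased by 24.8% (log2 fold change -0.41, SE 0.12, adjusted p = 0.0306 by edgeR).

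Both calls depended on single libraries. Hsc70-4 was not called without pupal RNAi replicate 1 or 3, pupal control replicate 1 or 3 or larval RNAi replicate 2 (edgeR adjusted p from 0.0539 to 0.207), and Hsp68 was not called without pupal RNAi replicate 1 or 3 or pupal control replicate 2 or 3 (edgeR adjusted p from 0.0542 to 0.196). Marker genes of other cells also differed: the 9 glial markers, none at 0, summed to 491 to 646 CPM in pupal RNAi and to 711 to 730.01 in pupal control libraries, with 1 of 8 tested called lower. The 9 neuroblast markers summed to 4674 to 5772 in pupal RNAi and to 3128 to 3827 in pupal control libraries, with 1 of 9 called higher. Only 4 of these 9 had a log2 fold change above 0, and their median was -0.23. On average 6 of the 9 were under 1 CPM in pupal RNAi and 5 in pupal control libraries, so few genes carried the sums. The 8 hemocyte markers summed to 180 to 195 in pupal RNAi libraries, with He at 0, and to 209 to 263 in pupal control libraries, with NimC1, eater and He at 0. Their part in the result was not tested.

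Hsp83, the Hsp90 gene, spread widely among the RNAi libraries, at 1021, 1875 and 1365.5 CPM, against 1969, 1692 and 1911 CPM in the pupal controls. RNAi replicate 2 lay among the controls and the other two below them, and the log2 fold change of -0.40 (SE 0.16) did not pass (edgeR adjusted p = 0.14). Without RNAi replicate 2 it was -0.65 and passed (edgeR adjusted p = 0.00682). Hsp26 stood at 1123, 1497 and 1273 CPM in RNAi and at 1401, 1608 and 1658 CPM in control libraries. These overlapped in 1 library, and the log2 fold change of -0.27 (SE 0.11) did not pass (edgeR adjusted p = 0.143).

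The other 6 genes overlapped between the groups and did not pass. Their log2 fold changes were -0.19 for Hsf (SE 0.10), -0.16 for Hsc70-3 (SE 0.09), -0.03 for stv (SE 0.22), -0.02 for Hop (SE 0.15), 0.03 for DnaJ-1 (SE 0.14) and 0.07 for Hsp27 (SE 0.12). The median log2 fold change of the 10 genes was -0.17, beside 0.01 for all genes tested. Pupal control replicate 1 was the lowest control for 8 of the 10 genes. For example, stv stood at 1944 CPM there and at 3679 and 3076 CPM in control replicates 2 and 3, beside 2841, 3189 and 2535 CPM in the RNAi libraries. Without that control, Hsf passed with a log2 fold change of -0.34 (edgeR adjusted p = 0.0213).

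Among related genes, 2 of the 6 heat-inducible Hsp70 copies fell, Hsp70Bbb (log2 fold change -1.55, SE 0.43, adjusted p = 0.0283 by edgeR) and Hsp70Ab (-0.49, SE 0.14, adjusted p = 0.0485 by edgeR), and the median was -0.45. DESeq2 called 1 of 5 tested, limma-voom 0 of 6 and edgeR 1 of 6 with the gene length trend removed. The copies are nearly identical, so reads may be split among them arbitrarily. Their summed share of all counts was 0.0708% ± 0.00902 in pupal RNAi and 0.0935% ± 0.00654 in pupal control libraries (SD, n = 3 each), with all RNAi libraries below the controls (exact 2-sided permutation p = 0.1, the smallest possible here). Of 22 other J-domain genes tested only Csp, which encodes the cysteine string protein of synaptic vesicles, fell (-0.27, SE 0.08, adjusted p = 0.0425 by edgeR).

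In the endoplasmic reticulum (ER), 2 of 17 genes fell. They were Gp93, for the Hsp90 of that compartment (-0.42, SE 0.10, adjusted p = 0.0127 by edgeR), and Der-1, a component of ER-associated degradation (-0.63, SE 0.15, adjusted p = 0.00918 by edgeR). None of 7 other small heat shock genes, 11 co-chaperones, 13 chaperonin (TRiC) and prefoldin genes or 8 mitochondrial chaperone genes was called by edgeR, with 3, 1, 2 and 3 at an unadjusted p under 0.05. DESeq2 and limma-voom called none of those they tested. Over all genes, 1966 of 8784 tested had an unadjusted p under 0.05 by edgeR. In a list chosen by name as stress and immediate early genes, 1 of 9 rose, CrebA (1.27, SE 0.36, adjusted p = 0.0315 by edgeR). Whether CrebA marks stress in any of the groups was not tested.

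In larval neurons none of the 10 genes was called, against 0.364% of all genes tested. By edgeR 2 had an unadjusted p under 0.05, as did 763 of all 8784 genes tested. DESeq2 and limma-voom called 0 of the 10 as well. Hsc70-3, the BiP gene, stood at 1097, 1106 and 1068 CPM in larval RNAi libraries, against 946, 887 and 876 CPM in larval control libraries. All 3 RNAi libraries were above the controls, but the log2 fold change of 0.26 (SE 0.09) did not pass (edgeR adjusted p = 0.343). Hsp27 stood at 3958, 4612 and 3855 CPM in larval RNAi libraries, against 3631, 3017 and 3505 CPM in larval control libraries. These did not overlap either, and the log2 fold change was 0.28 (SE 0.12, adjusted p = 0.528 by edgeR).

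The 2 genes that fell in pupae were near their control levels in larvae. Hsc70-4 stood at 2257, 2244 and 2130.2 CPM in larval RNAi libraries, against 2365, 2174 and 2076 CPM in the controls, a log2 fold change of -0.01 (SE 0.10). Hsp68 stood at 3221, 3164 and 3590.1 CPM in larval RNAi libraries, against 3238, 3359.7 and 2793 CPM in the controls, a log2 fold change of 0.07 (SE 0.12). Both overlapped. The other 6 genes had log2 fold changes from 0.11 to 0.23, and the median of the 10 was 0.13 beside -0.0045 for all genes. On this scale Hop was above its controls in all 3 larval RNAi libraries as well (422, 458 and 422 CPM, against 417, 376 and 402 CPM), but the groups overlapped when only neuron libraries set the scale. The list of stress and immediate early genes summed to 8807 to 10095 CPM with larval RNAi and to 7994 to 8550.4 CPM in the larval controls, with 0 of 9 called and 3 at an unadjusted p under 0.05 by edgeR. The mitochondrial share of counts was 1.37% to 1.57% with larval RNAi and 1.17% to 1.32% in the larval controls. The part of either in these levels was not tested. No member of the other chaperone lists was called in larvae by edgeR, DESeq2 or limma-voom, with 0 of 6 Hsp70 copies, 2 of 22 J-domain genes and 0 of 13 TRiC and prefoldin genes at an unadjusted p under 0.05 by edgeR.

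Whether the responses differed between stages was tested directly. None of the 10 genes passed by edgeR, against 0.364% of all genes. At an unadjusted edgeR p under 0.05 there were 6 of the 10, beside 917 of all 8784 genes tested. The difference of the log2 fold changes, pupal minus larval, was -0.51 for Hsp83 (SE 0.22, adjusted p = 0.427 by edgeR), -0.48 for Hsp68 (SE 0.16, adjusted p = 0.262 by edgeR) and -0.42 for Hsc70-3 (SE 0.13, adjusted p = 0.204 by edgeR). For Hsc70-4 it was -0.34 (SE 0.14, adjusted p = 0.404 by edgeR). All 10 differences were below 0, with a median of -0.32 beside 0.01 for all genes. DESeq2 called 1, Hsc70-3 (adjusted p = 0.0308), and limma-voom called 0. Without a filter on low counts edgeR called 2, Hsp68 (adjusted p = 0.0488) and Hsp83 (adjusted p = 0.0276). A difference between the stages was therefore not shown by the edgeR test.

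**Figure D3:**
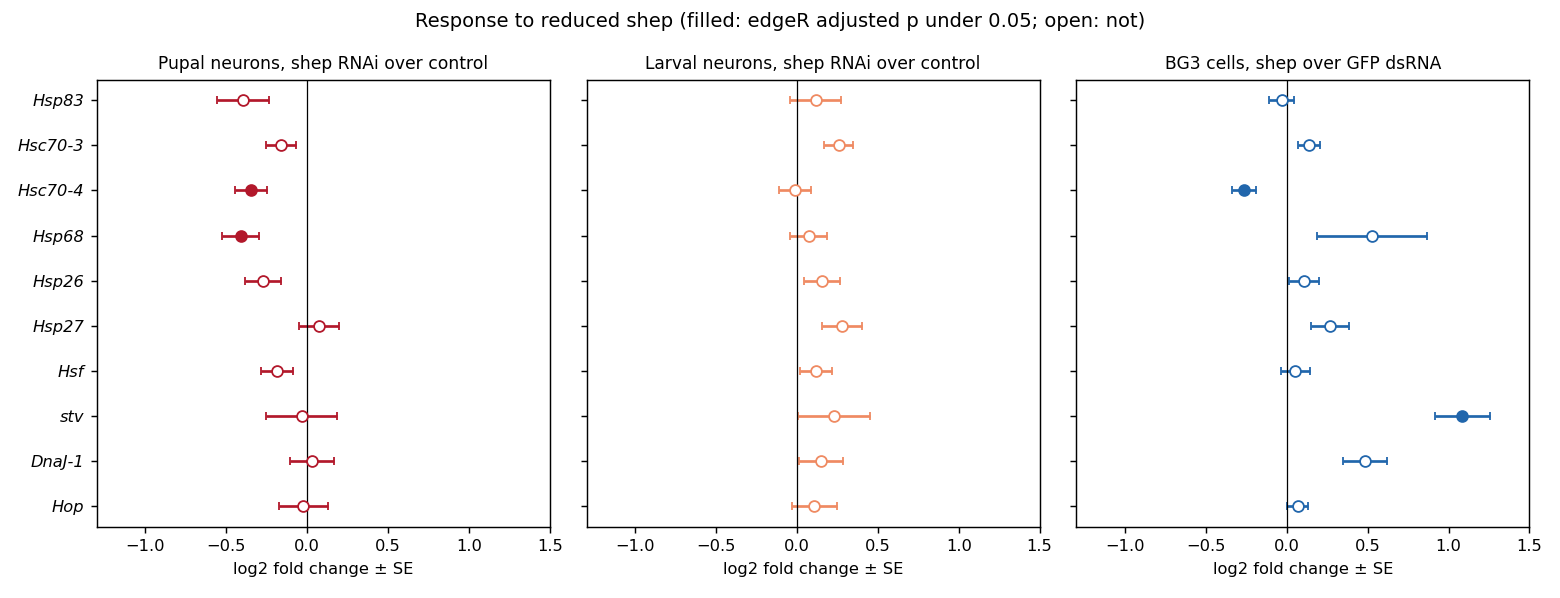
Log2 fold changes with SE (x axis) of the 10 genes (y axis) in pupal neurons, larval neurons and BG3 cells, tested over control. Filled points passed an edgeR adjusted p of 0.05: Hsc70-4 and Hsp68 (-0.35 and -0.41) in pupal neurons, none in larval neurons, and stv and Hsc70-4 (1.09 and -0.26) in BG3 cells.

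Control neurons of the 2 stages differed far more than RNAi and control. The Hsp70 regulator stv was 8.68-fold higher in pupal neurons and the transcription factor gene Hsf 2.10-fold higher, while the small heat shock gene Hsp27 and the adaptor gene Hop were much lower. Of the 10 genes 2 were called higher and 7 lower, close to the background of 83.3% of genes called (39.0% higher and 44.3% lower), so the number called says nothing about these genes. The scaling mattered here. The median log2 fold change of all genes was -0.16 with TMM factors and -0.91 with library totals alone, which gave 2272 higher and 5414 lower calls in place of 3428 and 3887. Changes are therefore also given relative to the median of all genes.

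stv stood at 1944, 3679 and 3076 CPM in pupal control libraries, against 254, 411 and 343 CPM in larval control libraries. The lowest pupal library was several-fold above the highest larval one, and the log2 fold change was 3.12 (SE 0.24, adjusted p = 1.18e-07 by edgeR), 3.28 above the median of all genes. Hsf stood at 323, 445 and 446 CPM in pupal control libraries, against 200.1, 200.1 and 179.6 CPM in larval control libraries, and pupal replicate 1 was again the lowest of its group. Its log2 fold change was 1.07 (SE 0.10, adjusted p = 6.37e-10 by edgeR), 1.24 above the median. With library totals alone both remained called higher, at 2.36 and 0.31.

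Hsp27 stood at 648, 819 and 909 CPM in pupal control libraries, against 3631, 3017 and 3505 CPM in larval control libraries. It decreased by 76.5% (log2 fold change -2.09, SE 0.13, adjusted p = 1.47e-13 by edgeR), or -1.93 relative to the median of all genes. Hsp26, whose gene lies near it on 3L, stood at 1401, 1608 and 1658 CPM in pupal control libraries, against 2133, 1921 and 1663 CPM in larval control libraries. The highest pupal and the lowest larval library nearly met, and the log2 fold change was -0.29 (SE 0.11, adjusted p = 0.021 by edgeR), or -0.12 relative to the median. It turned to 0.06 with the gene length trend removed (edgeR adjusted p = 0.588) and was not called without pupal control replicate 1 or larval control replicate 1 (edgeR adjusted p = 0.131 and 0.12).

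Hop stood at 106, 122 and 139.9 CPM in pupal control libraries, against 417, 376 and 402 CPM in larval control libraries, a decrease by 69.1% (log2 fold change -1.69, SE 0.15, adjusted p = 2.79e-08 by edgeR). The Hsp90 gene and the 3 Hsp70 family genes among the 10 were lower too, at smaller log2 fold changes. The log2 fold change was -0.75 for Hsc70-4 (SE 0.10, adjusted p = 3.14e-07 by edgeR), -0.55 for Hsp83 (SE 0.16, adjusted p = 0.00384 by edgeR) and -0.51 for Hsc70-3 (SE 0.09, adjusted p = 2.06e-05 by edgeR). For Hsp68 it was -0.37 (SE 0.12, adjusted p = 0.00477 by edgeR), which was -0.21 relative to the median and -0.0045 with the gene length trend removed (edgeR adjusted p = 0.97). In each of these genes the pupal controls lay below all larval controls.

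DnaJ-1, the Hsp40 gene, was the only member not called between stages. It stood at 2190.2, 3310.3 and 3001 CPM in pupal control libraries, against 2337, 3149 and 2482 CPM in larval control libraries, with wide overlap. Its log2 fold change was 0.10 (SE 0.14, adjusted p = 0.496 by edgeR) and 0.27 above the median of all genes. It passed as higher with the gene length trend removed (0.49, edgeR adjusted p = 0.00735) or without pupal control replicate 1 (0.28, edgeR adjusted p = 0.0481), and as lower with library totals alone (-0.66, edgeR adjusted p = 1.01e-05). The median of all genes was lower still with library totals alone, as given above. The sign of the log2 fold change of DnaJ-1 therefore could not be fixed, while it lay above the median of all genes on either scale.

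**Figure D4:**
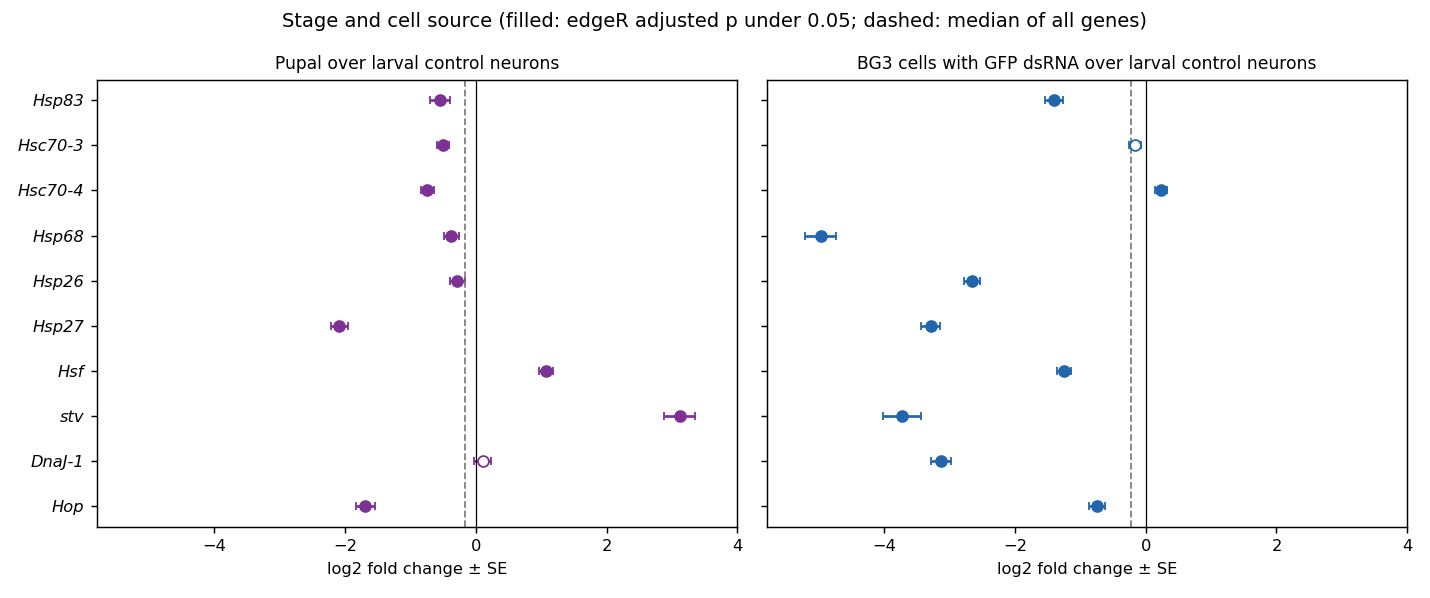
Log2 fold changes with SE (x axis) of the 10 genes (y axis) in pupal over larval control neurons and in BG3 cells with GFP dsRNA over larval control neurons. The dashed line is the median of all genes (-0.16 and -0.23), and filled points passed an edgeR adjusted p of 0.05. stv and Hsf lie right of the line between stages. In the BG3 comparison 7 genes lie left of -1. DnaJ-1, an open point between stages, is not fixed in sign because library totals alone turn it to -0.66. The median of all genes is lower still on that scale.

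Of the wider folding machinery, most genes of the cytosolic chaperonin and of the co-chaperones were lower in pupal control neurons. Beside the counts below, 83.3% of all genes tested were called, 39.0% higher and 44.3% lower. Of 13 TRiC and prefoldin genes, which fold actin and tubulin, 12 were called lower, with CCT1 (-4.39, SE 0.14), CCT2 (-3.66, SE 0.12), CCT6 (-2.85, SE 0.09) and CCT3 (-2.51, SE 0.11) at the smallest p (edgeR adjusted p from 7.75e-20 to 1.01e-16). The list median was -2.21 beside -0.16 for all genes. With library totals alone 13 of 13 were called lower, on a scale where most of all genes were called lower too. Of 11 co-chaperones 9 were called lower and 1 higher, with nudC (-2.96), Dpit47 (-2.94) and the Hsp90 co-chaperone gene p23 (-2.01) lower and STUB1, for the ubiquitin ligase that works with Hsp70, higher (1.71). The median was -1.22, or -1.98 with library totals alone, which lowered the median of all genes as well.

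Other classes were mixed. The calls of several turned with library totals alone, a scaling that also lowered the median of all genes. Their counts with TMM stand beside 39.0% of all genes called higher and 44.3% called lower. Counts with library totals alone stand beside the all-gene counts on that scale given above, where most genes were called lower. Of 6 Hsp70 copies 5 were called higher with TMM (median 0.69), led by Hsp70Bbb (1.93, SE 0.39), and 1 with library totals alone (median -0.065). Their summed share of counts was 0.0935% ± 0.00654 in pupal and 0.103% ± 0.0165 in larval control libraries, and the groups overlapped (SD, n = 3 each; exact 2-sided permutation p = 0.4). Small heat shock genes moved both ways, with Hsp67Ba (-3.66) and Hsp23 (-2.37) lower and CG7409 higher (4.83), or 2 higher and 3 lower of 7. Among 22 J-domain genes 9 were called higher and 11 lower, among them jdp (7.20, SE 0.15) and Csp (2.28, SE 0.09), which were higher. With library totals alone 7 were higher and 14 lower. Of the 17 ER genes 8 were higher and 8 lower, or 1 and 11 with library totals alone, with the protein disulphide isomerase gene ERp60 (-3.57), Calr (-3.52) and Gp93 (-2.71) lower. Of 8 mitochondrial chaperone genes 3 were higher, among them Hsp60A (1.35), and 3 lower, or 1 and 5 with library totals alone.

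Markers of other cells and the make-up of the libraries differed between the stages too. All 9 neuroblast markers were called lower in pupal control libraries (median -7.11), where they summed to 3128 to 3827 CPM, against 29671 to 41329 in larval control libraries with none at 0. Of 9 neuronal markers 7 were called higher and 2 lower, elav among the lower (-1.20). All 4 epidermis and trachea markers tested and 5 of 7 muscle markers were called lower. Other sums were higher in pupal controls. Glial markers summed to 711 to 730 CPM in pupal and 162 to 215 in larval controls, with 4 of 8 tested called higher and 3 lower. The glial marker repo was among the lower (-3.16, SE 0.31, adjusted p = 1.44e-09 by edgeR), against the direction of the sum. Hemocyte markers summed to 209 to 263 and 47.7 to 54.8, with 1 of 3 higher and 1 lower. Photoreceptor markers summed to 1171 to 1212 and 212 to 224, with 1 of 4 higher and 2 lower. Stress and immediate early genes summed to 3762 to 4768 CPM in pupal controls and to 7994 to 8550.4 CPM in larval controls, with 4 of 9 called higher and 4 lower. Mitochondrial transcripts took 2.36% to 2.78% of counts in pupal controls and 1.17% to 1.32% in larval controls, and rRNA took 1.31% to 1.67% in pupal and 0.708% to 0.752% in larval controls. The part of these in the chaperone levels was not tested.

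**Figure D5:**
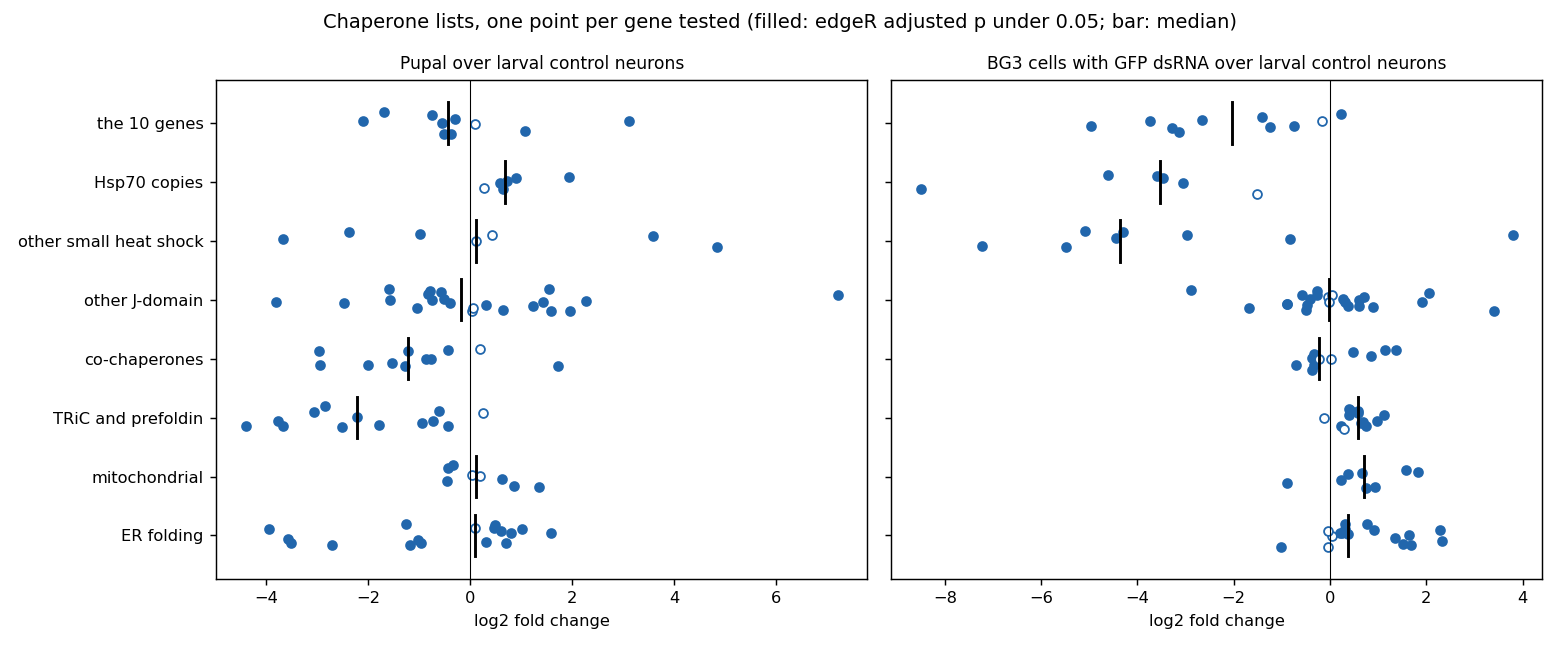
Each point is 1 tested gene of a chaperone list (y axis), with its log2 fold change (x axis) in pupal over larval control neurons and in BG3 cells with GFP dsRNA over larval control neurons. Filled points passed an edgeR adjusted p of 0.05 and bars mark list medians. TRiC and prefoldin genes lie left of 0 between stages (median -2.21) and mostly right of it in BG3 cells (0.57). The median of the Hsp70 copies lies right of 0 between stages with TMM (0.69) and left of it with library totals alone (-0.065). Library totals alone also lowered the median of all genes.

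In BG3 cells the response to shep dsRNA was tested against GFP dsRNA. Of the 10 genes 1 rose, stv, and 1 fell, Hsc70-4, against 5.41% of all 6816 genes tested (3.35% higher and 2.07% lower). Over all genes 228 were higher and 141 lower, or 273 and 96 with library totals alone. stv, the BAG-domain regulator of Hsp70, stood at 57.7, 53.9 and 50.1 CPM after shep dsRNA, against 16.3, 28.7 and 30.8 CPM after GFP dsRNA. Every shep dsRNA library was above every control, and GFP dsRNA replicate 1 was the lowest. The log2 fold change was 1.09 (SE 0.17, adjusted p = 0.00405 by edgeR), or 0.85 without GFP dsRNA replicate 1, and it remained called without any 1 of the 6 libraries.

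Hsc70-4 stood at 2210.2, 2172 and 2148 CPM after shep dsRNA, against 2533, 2739 and 2509 CPM after GFP dsRNA. The groups did not overlap, and the level decreased by 16.8% (log2 fold change -0.26, SE 0.07, adjusted p = 0.0342 by edgeR). It was not called without any of the 3 shep dsRNA libraries or without GFP dsRNA replicate 1 or 3 (edgeR adjusted p from 0.0856 to 0.17), nor with library totals alone (edgeR adjusted p = 0.148). When all 18 libraries shared 1 estimate of the spread, neither gene passed (edgeR adjusted p = 0.111 for stv and 0.243 for Hsc70-4).

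DnaJ-1 and Hsp68 were above their controls without passing. DnaJ-1 stood at 436, 431 and 412 CPM after shep dsRNA, against 233, 337 and 338 CPM after GFP dsRNA, a log2 fold change of 0.48 (SE 0.14, adjusted p = 0.105 by edgeR). It passed with DESeq2 (adjusted p = 0.00104), without a low-count filter (edgeR adjusted p = 8.8e-09), with library totals alone (edgeR adjusted p = 0.0123) and without GFP dsRNA replicate 1 (0.33, edgeR adjusted p = 0.0229). Hsp68 stood at 143, 149 and 142 CPM after shep dsRNA, against 54.3, 110.3 and 134 CPM after GFP dsRNA, a log2 fold change of 0.53 (SE 0.34, adjusted p = 0.517 by edgeR), or 0.23 without GFP dsRNA replicate 1. Hsp27 had a log2 fold change of 0.27 (SE 0.12, adjusted p = 0.266 by edgeR), 0.14 without GFP dsRNA replicate 1 and 0.40 without GFP dsRNA replicate 3, where it passed (edgeR adjusted p = 0.0147).

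The remaining genes ranged from -0.03 for Hsp83 (SE 0.08) to 0.14 for Hsc70-3 (SE 0.07). In all, the shep dsRNA libraries were above their controls in 5 of the 10 genes, below them in 1 and overlapping in 4. How many of all genes separated in this way was not counted. GFP dsRNA replicate 1 was the lowest of its group for 7 of the 10. These numbers therefore say nothing about the 10 genes as a set. The median of the 10 was 0.12 beside -0.01 for all genes. In related lists 1 of 4 small heat shock genes rose, CG14207 (0.51, SE 0.08, adjusted p = 0.000487 by edgeR). So did HIP, a co-chaperone of Hsp70 (0.38, SE 0.08, adjusted p = 0.00536 by edgeR), 1 of 11 in its list. The mitochondrial chaperone list had 1 of 8 higher, CG11267 (0.33, SE 0.09, adjusted p = 0.0259 by edgeR). Of 8 genes tested in the list of stress and immediate early genes 3 rose, sr (0.99), the JNK phosphatase gene puc (0.65) and CrebA (0.43). None of 13 TRiC and prefoldin, 22 J-domain or 17 ER genes was called by edgeR, DESeq2 or limma-voom, with 2, 2 and 3 by edgeR at an unadjusted p under 0.05. Over all genes, 1298 of 6816 tested had an unadjusted p under 0.05 by edgeR.

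The BG3 groups also differed in library make-up. Mitochondrial transcripts took 7.53% to 10.1% of counts after shep dsRNA, against 12.7% to 17.7% after GFP dsRNA. With mitochondrial and rRNA genes left out, stv (1.09, edgeR adjusted p = 0.00313) and Hsc70-4 (-0.26, edgeR adjusted p = 0.0223) were called as before. With all BG3 libraries thinned to the depth of the shallowest, the number called was 2 again. Glial markers summed to 687 to 740 CPM after shep dsRNA and to 566 to 678 after GFP dsRNA, with 0 of 6 tested called by edgeR and 1 at an unadjusted p under 0.05, and no marker at 0. Hemocyte markers summed to 1742 to 2085 CPM after shep dsRNA, with eater at 0, and to 1887 to 2095 CPM after GFP dsRNA, with He at 0. Of the 5 tested 1 was called lower by edgeR and 3 had an unadjusted p under 0.05. The sums of 8 photoreceptor markers did not overlap, at 123 to 146 CPM after shep dsRNA, with ninaE, Rh4 and Rh6 at 0, and 99.9 to 117 CPM after GFP dsRNA, with ninaE, Rh3, Rh4, Rh6 and trp at 0. The 1 of them tested was not called. Stress and immediate early genes summed to 1894 to 2043 after shep dsRNA and to 1650.0 to 1733 after GFP dsRNA. Their part in the result was not tested.

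Set against larval control neurons, BG3 cells with GFP dsRNA held far less RNA of Hsp68, stv, Hsp27, DnaJ-1 and Hsp26. Amounts of the cognates Hsc70-3 and Hsc70-4 were more similar. Of the 10 genes 8 were called lower and 1 higher, against 82.5% of 9439 genes tested (45.4% lower and 37.0% higher), and the all-gene median was -0.23. The log2 fold change was -4.97 for Hsp68 (SE 0.24), -3.73 for stv (SE 0.29), -3.29 for Hsp27 (SE 0.14), -3.13 for DnaJ-1 (SE 0.16) and -2.66 for Hsp26 (SE 0.12), with edgeR adjusted p from 1.03e-20 to 1.75e-08. It was -1.41 for Hsp83 (SE 0.14, adjusted p = 2.49e-10 by edgeR), -1.25 for Hsf (SE 0.11, adjusted p = 4.04e-12 by edgeR) and -0.75 for Hop (SE 0.12, adjusted p = 3.81e-06 by edgeR).

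For Hsp68 the values were 54.3, 110.3 and 134 CPM in BG3 cells, against 3238, 3359.7 and 2793 CPM in larval control neurons. All BG3 libraries were below the larval controls for these 8 genes, and for Hsc70-3 as well. The share of all genes that separated in this way was not counted. Hsc70-4 stood at 2533, 2739 and 2509 CPM in BG3 cells, against 2365, 2174 and 2076 CPM in larval controls, a log2 fold change of 0.23 (SE 0.10, adjusted p = 0.0287 by edgeR). This call was lost without any of the 6 BG3 or 3 larval RNAi libraries, without larval control replicate 2 or 3 (edgeR adjusted p from 0.0708 to 0.21), and with the 2 groups fitted alone (edgeR adjusted p = 0.055). Hsc70-3 had a log2 fold change of -0.16 (SE 0.09, adjusted p = 0.0927 by edgeR), which turned to 0.37 with the gene length trend removed (edgeR adjusted p = 0.000286). It was called lower with limma-voom (-0.16, adjusted p = 0.045), without a low-count filter (-0.23, edgeR adjusted p = 0.0381), with only the groups compared, and without larval control replicate 3 or any 1 of the larval RNAi or shep dsRNA libraries.

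Related lists divided as well, with medians of the same sign under library totals alone. Over all genes tested, 45.4% were called lower and 37.0% higher. Of 6 Hsp70 copies 5 were called lower (median -3.53), and their share of counts was 0.00737% ± 0.000103 in BG3 cells and 0.103% ± 0.0165 in larval controls (SD, n = 3 each). Of 8 other small heat shock genes 7 were lower (6 with library totals alone), among them Hsp67Bc (-5.49) and Hsp67Ba (-5.08). The list of stress and immediate early genes was mixed, with 5 of 9 called higher and 2 lower (median 0.39). CrebA (4.29), kay (3.08) and Gadd45 (1.63) were higher, and the heat shock RNA lncRNA:Hsromega was lower (-4.37). By contrast 11 of 13 TRiC and prefoldin genes (median 0.57), 13 of 17 ER genes (0.37) and 7 of 8 mitochondrial chaperone genes (0.70) were called higher. Neurons were dissociated and sorted live whereas BG3 cells were cultured, so cell source and preparation cannot be told apart.

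Across the 6 groups the order of mean CPM differed between genes. Hsp83, Hsc70-3, Hsp68, Hsp26, Hsp27, DnaJ-1 and Hop had their highest mean in larval RNAi libraries, and Hsf and stv in pupal control libraries. For Hsp83 the order ran through larval RNAi (2991 ± 175 CPM), larval control (2731 ± 283), pupal control (1857 ± 146), pupal RNAi (1420.5 ± 429.9), GFP dsRNA (1031 ± 97.0) and shep dsRNA (1016 ± 58.7; SD, n = 3 each). Of these neighbouring groups only larval control and pupal control did not overlap. Hsc70-4 had its highest mean with GFP dsRNA, at 2594 ± 127 CPM, which did not overlap the next group. Larval RNAi, larval control and shep dsRNA libraries followed, each overlapping its neighbour, and the mean was lowest in pupal RNAi libraries at 1037 ± 139.9 CPM.

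Over the 18 libraries, the genes whose log2 CPM was most alike to a member's were found among 6806 genes of at least 5 CPM on average. Libraries of a group are alike, so these correlations mainly follow the 6 group means, and they are given as a description. Hsp68 and Hsp26 were closest to each other (Pearson r = 0.99), and Hsp67Bc, another small heat shock gene, came next for both (0.99 for each). Hsp110, for the Hsp70 relative that exchanges its nucleotide, was closest to Hop (0.99) and to Hsc70-3 (0.95). Hsc70-4 followed CG33303 and the ribosomal protein gene RpL3 (0.98 for each), and Hsp83 followed the ubiquitin conjugating enzyme gene ben (0.97). Hsp27 was closest to the adhesion gene Nrt, Hsf to Cnot4, stv to Sms, and DnaJ-1 to smal (0.99 for Nrt, 0.99 for Cnot4, 0.997 for Sms and 0.99 for smal).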

How the data were processed

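RNA-seq libraries of sorted neurons and BG3-c2 cells were analysed from 1 table of raw gene counts that the authors deposited. Per the submitters' processing notes, cutadapt 1.10, HISAT2 2.0.4, featureCounts 1.5.0-p3 and the dm6 build were used. Strand setting, annotation release and the handling of multi-mapping reads are not given in the sources used here. All 17402 genes were read, of which 2102 had no count and 17210 had a position in Ensembl release 115. The name Hop was matched to Stip1.

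Counts were tested in R 4.3.3 with edgeR 4.0.16 (filterByExpr, TMM factors, robust quasi-likelihood test), with p-values adjusted over all genes tested by Benjamini-Hochberg and called under 0.05. The 12 neuron libraries were fitted together, the 6 BG3 libraries alone, and all 18 for BG3 cells against larval neurons. Levels are CPM with TMM factors over 18 libraries; marker sums are CPM by library totals. Single values were compared by exact 2-sided permutation tests. DESeq2 1.42.0 and limma 3.58.1 (voom) were alternatives, and single libraries were left out one at a time. The fits were tested on simulated counts. The genes named were the 10 in every comparison, shep, elav and repo as label checks, up to 4 called genes of each related list with the smallest p, and the genes with the highest Pearson correlation to each of the 10 (2 each at most). The 10 genes and all lists were chosen with earlier results of these data known. Promoter motifs were not analysed here, and no sequences were used.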

Additional observations from a re-analysis of the deposited data

Results flagged for a closer look

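Hsp68, the inducible Hsp70 gene, lay on opposite sides of its controls in 2 settings with the same contrast of reduced shep against control. In pupal neurons all 3 shep RNAi libraries were below their controls, with a log2 fold change of -0.41. In BG3 cells all 3 shep dsRNA libraries were above their controls, with a log2 fold change of 0.53 that did not pass (edgeR adjusted p = 0.517) and was 0.23 without GFP dsRNA replicate 1. The difference between the 2 settings was not tested, and cell source, preparation and the way of reducing shep cannot be told apart between them.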

How the results depend on the processing

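Of the 10 genes, the number called in pupal RNAi against control was 2, and it was 0 at an adjusted p under 0.01, 0 with at least a 2-fold change, 4 with no low-count filter and 0 to 3 with 1 library left out. For the difference between stages it was 0, but 1 with DESeq2, 2 with no filter and 0 with any library left out. In larval RNAi it was 0 under every alternative run. For pupal against larval control it was 9, and 4 with at least a 2-fold change (8 to 9 with 1 library left out). For shep against GFP dsRNA it was 2, and 1 at an adjusted p under 0.01, 1 with at least a 2-fold change, 4 with no filter, 0 in the fit of all 18 libraries and 1 to 2 with 1 library left out. For BG3 cells against larval neurons it was 9, and 8 to 9 with 1 library left out.

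Changes of sign were near 0 in pupal RNAi, for DnaJ-1 (-0.011 with no filter and -0.14 to 0.16 with 1 library left out), Hop (-0.27 to 0.14), Hsp27 (-0.070 to 0.17) and stv (0.0087 with limma-voom, 0.0095 with the replicate block and -0.27 to 0.18). In larval RNAi they were for Hsc70-4 (0.00048 with RLE size factors, 0.0012 with DESeq2 and -0.063 to 0.054) and Hsp68 (-0.012 to 0.12). In the difference they were for DnaJ-1 (-0.30 to 0.0083) and Hop (-0.38 to 0.031). Between stages they were for DnaJ-1 (-0.66 with library totals alone and -0.022 to 0.28) and Hsp26 (0.064 with the length trend removed). In BG3 cells they were for Hsp26 (-0.0099 to 0.22) and Hsp83 (0.015 with library totals alone and -0.082 to 0.045), and against larval neurons for Hsc70-3 (0.37 with the length trend removed). The causes were not tested.

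Replicate numbers are shared between groups, but deviations of same-numbered libraries correlated at -0.18 to 0.19 and over 0.1 in all 3 pairs of no comparison, so the numbers were not taken as pairs. By this correlation, the closest library of the other group carried the same number for 6 of 6 libraries in shep against GFP dsRNA. It did so for 5 of 6 in pupal against larval control and 3 of 6 in BG3 cells against larval control. In larval and pupal RNAi it did so for 1 and 0 of 6. Pairing was not tested beyond the replicate block. With the replicate block the counts of called genes among the 10 were 2, 0, 0, 9, 2 and 9 in the 6 comparisons, as without it, and over all genes the count in BG3 cells was 616 against 369. Thinning of BG3 libraries, leaving out mitochondrial and rRNA genes, and library totals alone were chosen after seeing the data. The promoter motif search and a fit of only the groups compared for the difference between stages were not run. Over all genes, the difference between stages gave 32 calls, or 116 with DESeq2 and 102 with no filter, and larval RNAi 32, or 76 with no filter. Library totals alone gave 6 higher and 18 lower in larvae, against 15 and 17, and 13 and 18 in the difference, against 9 and 23. With 1 library left out the counts over all genes were 319 to 895 in pupal RNAi (lowest without pupal RNAi replicate 1), 10 to 52 in larval RNAi (lowest without larval RNAi replicate 1), 13 to 89 for the difference (lowest without larval control replicate 3, highest without larval control replicate 1) and 133 to 466 in BG3 cells (lowest without shep dsRNA replicate 1).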

Other observations

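In some libraries most of the 10 genes were the highest or the lowest of their group. In pupal neurons with shep RNAi, replicate 2 was the highest for 10 of the 10 genes, and replicate 1 was the lowest for 7 and the highest for 0. Among pupal controls, replicate 1 was the lowest for 8 and the highest for the other 2. In larval neurons with shep RNAi, replicate 3 was the lowest for 6 and the highest for 3. Among larval controls, replicate 1 was the highest for 7 and the lowest for 2, stv and DnaJ-1. In BG3 cells with shep dsRNA, replicate 3 was the lowest for 8 and the highest for 1. With GFP dsRNA, replicate 1 was the lowest for 7 and the highest for 0, while replicate 3 was the highest for 9 and the lowest for 1, Hsc70-4. These are ranks within groups of 3, with no test.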
